A study of Mus musculus with 23 samples.

Results

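9 genes of the hepatic methionine cycle, choline oxidation and transsulfuration were followed in mouse liver: Mat1a, Gnmt, Ahcy, Bhmt, Cbs, Cth, Pemt, Chdh and Dmgdh. These 9 genes were chosen by name from the 24062 genes counted, and all 9 were among the 14196 that passed the filter on low counts. RNA was sequenced from the livers of 23 mice of the B6/129 strain, 1 library per mouse, and each mouse was either an Ehhadh knockout (KO) or wild type (WT). Ehhadh encodes the peroxisomal L-bifunctional enzyme of fatty acid beta-oxidation. The groups were 5 KO mice given L-AC (28 to 38 weeks old), 6 WT mice given L-AC (28 to 44 weeks), 5 KO mice given saline (31 to 44 weeks) and 7 WT mice given saline (29 to 45 weeks). L-AC appears in the labels only under that abbreviation. As background, the compound L-aminocarnitine blocks carnitine palmitoyltransferase 2, an enzyme of mitochondrial long-chain fatty acid oxidation. The labels give no dose, duration or deletion design, and name the tissue only as liver.

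The methionine cycle turns methionine into S-adenosylmethionine, the methyl donor of the cell, and the liver carries most of this flux in mammals. Each methyl transfer from S-adenosylmethionine leaves S-adenosylhomocysteine, which is split to homocysteine. Homocysteine is either remethylated to methionine or passed through transsulfuration to cysteine. Choline enters the same cycle by oxidation to betaine, whose methyl group remethylates homocysteine, while methylation of phosphatidylethanolamine uses S-adenosylmethionine to make phosphatidylcholine, the source of newly made choline.

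L-AC moved most of the 9 genes and moved them in both genotypes. Mat1a rose, while Gnmt, Bhmt, Dmgdh, Cbs, Cth and Pemt fell, in KO and in WT livers; Chdh fell in WT livers, and Ahcy did not pass the test in either. Calls are adjusted p-values under 0.05 by the quasi-likelihood test of edgeR with Benjamini-Hochberg adjustment over the 14196 genes. By this test 7 of the 9 genes were called between L-AC and saline in KO livers, 1 higher and 6 lower, where 48.8% of all genes were called, 25.2% higher and 23.6% lower. In WT livers 8 of the 9 were called, 1 higher and 7 lower, against 53.3% of all genes, 26.6% higher and 26.7% lower. The share of members called, higher or lower, is to be read against these shares. The median log2 fold change of the 9 genes was -0.63 in KO and -0.55 in WT livers, beside -0.005 and -0.009 over all genes tested in the same contrasts. For the hepatocyte markers listed below it was -0.65 in KO and -0.43 in WT. Periportal markers had medians of -1.71 in KO and -1.62 in WT, and pericentral markers -0.89 in each genotype. A median fall of this size was thus not particular to the 9 genes. Between genotypes none of the 9 genes was called under either treatment.

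The libraries held 24521896 to 48095959 counted reads, and the L-AC group of KO mice was the most even, at 26325848 to 31206300. Ehhadh itself averaged 1658 ± 286.3 CPM (reads scaled to library size) in KO L-AC, 13037 ± 1602 in WT L-AC, 141.6 ± 64.35 in KO saline and 954 ± 335.1 in WT saline livers (SD, n = 5, 6, 5 and 7), so reads assigned to it were fewer in KO than in WT under both treatments but were not absent. Hepatocyte markers (Alb, Apoa1, Ttr, Fgb and Serpina1c) summed to at least 27524 CPM in every library, and lymphocyte markers to at most 6.67 CPM. Pancreas acinar markers (Cpa1, Ctrb1, Pnlip, Cela2a and Prss2) reached 37.7 CPM in KO saline and 14.6 in WT L-AC, where the group medians were 1.56 and 1.02 CPM. They summed to at most 1.42 CPM in KO L-AC and 2.05 in WT saline. Replicates are separate animals, and the labels name no batch.

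**Figure D1:**
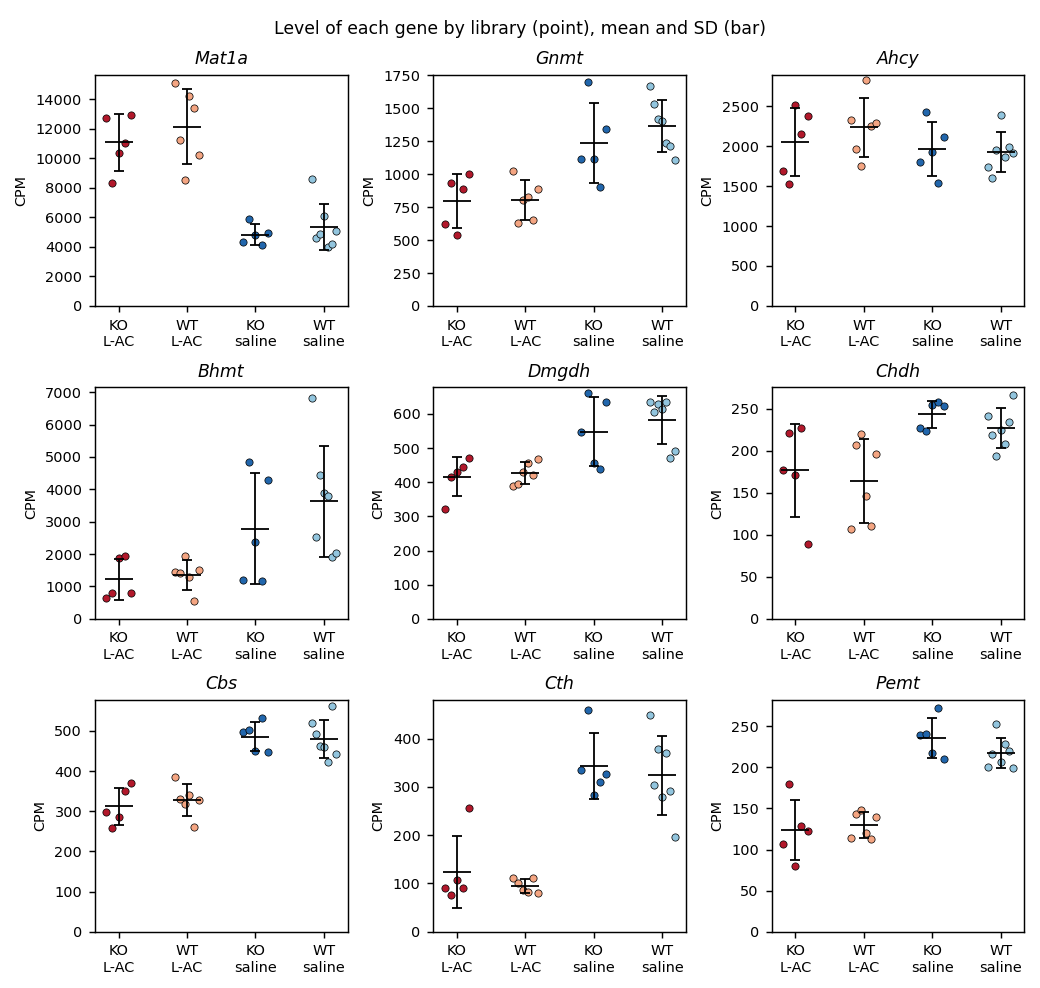
Level of each of the 9 genes in CPM in every library (points) with the mean and SD of each group (bars); KO L-AC, WT L-AC, KO saline and WT saline run from left to right in each panel. Mat1a is higher under L-AC than under saline in both genotypes, Cbs, Cth and Pemt are lower without overlap, and the groups of Ahcy overlap.

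At the level of the promoter, RefSeq windows of 300 bases around the start (build GRCm38.p6) were at hand for 7 of the 9 genes, in 10 windows. The stretches below are shown because Gnmt, Bhmt and Cbs fell under L-AC while Ahcy did not pass the test, and because Bhmt2 and Dmgdh start head to head. Each is the sequence before the outermost start annotated in the deposited files or in RefSeq, which for Gnmt and Cbs lies upstream of the start in the files, read 5′ to 3′ on the strand of the gene, except the last, which is the plus strand. Capitals mark matches, on either strand, to CCAAT, to GGGCGG (GC box) or AGGTCA (a nuclear receptor half-site), and no marked matches overlap. Gnmt lies at chr17:46729212-46729411 (mm10, minus strand), Bhmt at chr13:93637759-93637958 (minus), Cbs at chr17:31637234-31637433 (minus), Ahcy at chr2:155074498-155074697 (minus), and the stretch between Bhmt2 and Dmgdh at chr13:93674303-93674435 (plus).
Gnmt: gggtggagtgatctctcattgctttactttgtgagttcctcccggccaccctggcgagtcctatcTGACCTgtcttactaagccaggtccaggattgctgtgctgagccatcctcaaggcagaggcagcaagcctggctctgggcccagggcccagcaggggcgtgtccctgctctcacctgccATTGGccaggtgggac
Bhmt: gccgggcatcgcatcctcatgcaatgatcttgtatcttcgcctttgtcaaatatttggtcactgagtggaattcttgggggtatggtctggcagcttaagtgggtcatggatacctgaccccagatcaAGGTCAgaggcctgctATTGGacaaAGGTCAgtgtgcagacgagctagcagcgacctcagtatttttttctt
Cbs: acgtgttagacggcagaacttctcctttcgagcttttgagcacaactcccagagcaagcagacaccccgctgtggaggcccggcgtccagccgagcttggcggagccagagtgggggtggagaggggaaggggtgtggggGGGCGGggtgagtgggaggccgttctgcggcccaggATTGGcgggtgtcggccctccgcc
Ahcy: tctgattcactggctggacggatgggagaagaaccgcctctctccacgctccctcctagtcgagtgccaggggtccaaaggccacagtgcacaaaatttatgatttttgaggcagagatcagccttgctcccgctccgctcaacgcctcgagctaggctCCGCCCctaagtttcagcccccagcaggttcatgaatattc
between Bhmt2 and Dmgdh: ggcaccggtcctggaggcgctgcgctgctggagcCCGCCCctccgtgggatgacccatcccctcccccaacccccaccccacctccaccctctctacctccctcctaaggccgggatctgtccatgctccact
The Gnmt and Bhmt stretches each hold the half-site and the CCAAT box, and Bhmt holds the half-site in 2 copies beside its CCAAT box. The Cbs stretch holds a GC box and a CCAAT box, and those of Ahcy and of Bhmt2 and Dmgdh a GC box. Over whole windows of 300 bases, AGGTCA was found in 3 of the 10 member windows (Gnmt, Bhmt and Ahcy) and in 16.3% of all 32851 RefSeq windows, CCAAT in 5 of 10 and 37.4%, and GGGCGG in 4 of 10 and 35.7%. CACGTG (an E-box) was found in 1 member window, that of Cbs, and in 7.15% of all. No member window held TATAAA (13.6% of all windows), TGATGNAA (ATF4 and C/EBP composite, 3.97%), TGTTTAC (forkhead, 3.65%), CAAAGTCCA (HNF4A, 0.475%) or TTGCGCAA (C/EBP palindrome, 0.183%). CpG content ranged widely, also between windows of 1 gene: the 3 Chdh windows held 26, 4 and 4 CpG, the Dmgdh window 25, Cbs 22, Ahcy 13, Gnmt 11 and Bhmt 8, and the Pemt windows 3 and 2, beside a median of 7 over all windows. The window of Ahcy, which was not called, carried all 3 of the motifs that the capitals mark.

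Mat1a encodes the liver form of methionine adenosyltransferase, which makes S-adenosylmethionine, and it was the only one of the 9 genes that rose. The KO L-AC livers had 12737, 8302, 10334, 11020 and 12933 CPM, against 4304, 5910, 4801, 4143 and 4956 CPM in the KO saline livers. The WT L-AC livers ran from 8539 to 15093 CPM with a median of 12312, against 3986 to 8574 with a median of 4888 CPM in WT saline. In KO every L-AC library was above every saline library, while in WT the highest saline library, replicate 1, reached just above the lowest L-AC library. The rise was 2.29-fold in KO (log2 fold change 1.20, SE 0.196, edgeR adjusted p = 3.17e-05) and 2.27-fold in WT (1.18, SE 0.171, edgeR adjusted p = 5.61e-06). Without replicate 1 of WT saline the log2 fold change in WT was 1.34.

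Gnmt encodes glycine N-methyltransferase, an abundant liver enzyme that consumes S-adenosylmethionine by methylating glycine. Its levels were 619, 935.4, 538.5, 888.6 and 1002 CPM in KO L-AC livers, against 1116, 1698, 1114, 899.9 and 1343 CPM in KO saline livers. In WT they ran from 628.2 to 1027 with a median of 818.3 CPM under L-AC, and from 1106 to 1669 with a median of 1401 CPM under saline. The groups did not overlap in WT, and in KO the highest L-AC libraries lay above the lowest saline library. Gnmt fell by 0.63 on the log2 scale in KO (SE 0.183, edgeR adjusted p = 0.00671) and by 0.76 in WT (SE 0.162, edgeR adjusted p = 0.000428).

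Pemt encodes phosphatidylethanolamine N-methyltransferase, the liver route to phosphatidylcholine that spends S-adenosylmethionine. The KO L-AC livers had 106.6, 179.6, 79.4, 129.0 and 122.8 CPM, against 239.3, 240.4, 217.8, 272.0 and 210.3 CPM in KO saline. The WT L-AC livers ran from 113.1 to 148.5 CPM with a median of 129.4, against 199.8 to 253.0 with a median of 216.3 CPM in WT saline. No L-AC library reached the lowest saline library of its genotype. The fall was 1.91-fold in KO (log2 fold change -0.93, SE 0.145, edgeR adjusted p = 1.66e-05) and 1.68-fold in WT (-0.75, SE 0.128, edgeR adjusted p = 4.31e-05).

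Ahcy encodes S-adenosylhomocysteine hydrolase, which clears the product left when S-adenosylmethionine gives up its methyl group. Ahcy was the most even of the 9 genes across groups. It averaged 2052 ± 429.9 CPM in KO L-AC, 2235 ± 368 in WT L-AC, 1963 ± 333.9 in KO saline and 1923 ± 248.9 in WT saline livers (SD, n = 5, 6, 5 and 7). The groups overlapped throughout, from 1529 to 2830 CPM under L-AC and from 1539 to 2429 CPM under saline. The log2 fold change of L-AC over saline was 0.06 in KO (SE 0.153, edgeR adjusted p = 0.747) and 0.22 in WT (SE 0.134, edgeR adjusted p = 0.178).

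Bhmt encodes betaine-homocysteine methyltransferase, which returns homocysteine to methionine with a methyl group of betaine. It was the most variable of the 9 genes within groups other than KO L-AC, where Cth varied more: the coefficient of variation of Bhmt was 52.1% in KO L-AC, 33.6% in WT L-AC, 61.6% in KO saline and 47.3% in WT saline. The KO L-AC livers had 654.2, 805.5, 1865, 1954 and 812.1 CPM, against 1211, 4857, 2388, 1180 and 4281 CPM in KO saline. The WT L-AC livers ran from 548.4 to 1942 CPM with a median of 1421, against 1919 to 6834 with a median of 3806 CPM in WT saline. In KO the groups overlapped widely, with 2 saline libraries among the L-AC ones, and in WT they overlapped only where the highest L-AC library stood just above the lowest saline library. Bhmt was 2.28-fold lower in KO (log2 fold change -1.19, SE 0.432, edgeR adjusted p = 0.026) and 2.68-fold lower in WT (-1.42, SE 0.386, edgeR adjusted p = 0.00367). The call in KO was lost when any 1 of 5 libraries was left out, KO saline replicates 2 and 5 and KO L-AC replicates 1, 2 and 5, with edgeR adjusted p-values between 0.0607 and 0.0969. In WT the log2 fold change was -1.20 without WT saline replicate 1, which had the highest Bhmt of all libraries.

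Chdh encodes choline dehydrogenase, which starts the oxidation of choline to betaine in mitochondria. Its levels were 176.6, 221.1, 171.2, 226.9 and 88.96 CPM in KO L-AC livers, against 226.7, 223.8, 254.6, 257.5 and 252.8 CPM in KO saline livers. In WT they ran from 106.8 to 219.5 with a median of 170.9 CPM under L-AC, and from 194.2 to 266.4 with a median of 224.8 CPM under saline. The groups overlapped in both genotypes, and the L-AC libraries were the more spread, with a coefficient of variation of 31.2% against 6.75% in KO and 30.4% against 10.3% in WT. The log2 fold change was -0.46 in KO (SE 0.205, edgeR adjusted p = 0.0681), which is not a call, and -0.47 in WT (SE 0.181, edgeR adjusted p = 0.0339), which is. Neither side of that line was firm. The WT call was lost without any 1 of WT saline replicates 6 and 7 or WT L-AC replicates 1, 4 and 5 (edgeR adjusted p between 0.0502 and 0.0921), and Chdh was called in KO by limma-voom (adjusted p = 0.0492) and by edgeR without KO L-AC replicate 2 (adjusted p = 0.0403) or 4 (adjusted p = 0.036). Its 3′ neighbour Cacna1d lies on the other strand and shares 528 exon bases with it (8.96% of its exon length), and since strand was ignored in counting, reads there cannot be assigned to 1 of them. Counts of Cacna1d were 12.9% to 26% of those of Chdh. Cacna1d averaged 30.57 ± 14.96 CPM in KO L-AC and 47.47 ± 3.456 in KO saline (SD, n = 5 each). In WT it averaged 24.14 ± 8.647 CPM under L-AC and 45.53 ± 3.715 under saline (SD, n = 6 and 7). The part of shared reads in the change of Chdh was not tested.

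Dmgdh encodes dimethylglycine dehydrogenase, which oxidizes the product that Bhmt leaves when betaine gives up a methyl group. The KO L-AC livers had 322.9, 415.1, 429.0, 445.2 and 469.7 CPM, against 548.0, 660.7, 457.3, 439.8 and 634.5 CPM in KO saline. The WT L-AC livers ran from 388.1 to 469.1 CPM with a median of 425.8, against 471.5 to 635.0 with a median of 613.1 CPM in WT saline. The WT groups did not overlap, and in KO 2 saline libraries lay within the range of L-AC. Dmgdh fell by 0.40 on the log2 scale in KO (SE 0.123, edgeR adjusted p = 0.0106) and by 0.45 in WT (SE 0.109, edgeR adjusted p = 0.00142). The antisense gene AW495222 shares 215 exon bases with it (7.22%), and its counts were 11.3% to 13% of those of Dmgdh in every library. With all counts of AW495222 taken away, Dmgdh averaged 366.6 ± 51.5 CPM in KO L-AC against 483.7 ± 88.73 in KO saline, and 376.9 ± 28.98 CPM in WT L-AC against 513.9 ± 60.58 in WT saline (SD, n = 5, 5, 6 and 7).

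Bhmt and Dmgdh, consecutive steps of betaine breakdown, are close neighbours in the genome with Bhmt2 between them. On mm10 Bhmt spans chr13:93616891-93637758 (minus strand), Bhmt2 chr13:93656097-93674302 (minus) and Dmgdh chr13:93674436-93752823 (plus), so that 18.339 kb separate Bhmt from Bhmt2 and 133 bases separate the starts of Bhmt2 and Dmgdh. Bhmt2, which encodes a relative of Bhmt that uses S-methylmethionine as its methyl donor, averaged 167.9 ± 24.69 CPM in KO L-AC, 182.6 ± 37.37 in WT L-AC, 213.4 ± 27.19 in KO saline and 230.6 ± 37.51 in WT saline livers (SD, n = 5, 6, 5 and 7). Its log2 fold change of L-AC over saline was -0.35 in KO (SE 0.146, edgeR adjusted p = 0.0542) and -0.34 in WT (SE 0.129, edgeR adjusted p = 0.0318). The fitted log2 fold changes of Bhmt2 and Dmgdh were of similar size, though Bhmt2 was not called in KO, and the fall of Bhmt was over 2-fold. Whether the 3 fold changes differ from one another, or the stretch between Bhmt2 and Dmgdh has a part in them, was not tested.

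**Figure D2:**
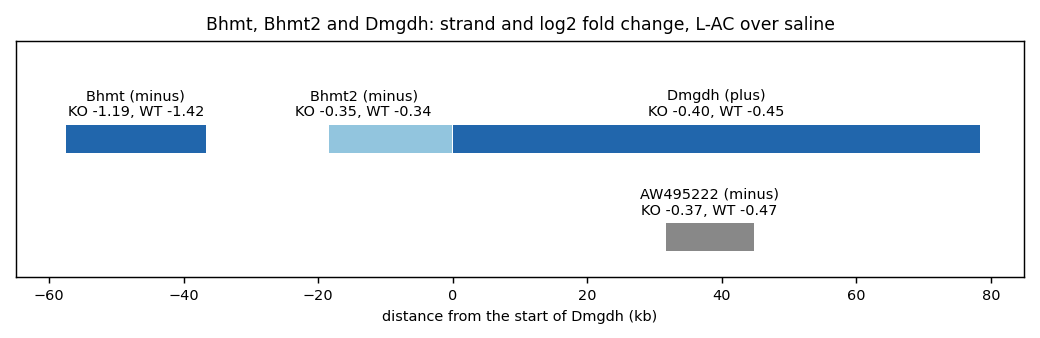
Map of Bhmt, Bhmt2, Dmgdh and the antisense gene AW495222 by distance from the start of Dmgdh in kb, with the strand and the log2 fold change of L-AC over saline in KO and WT above each gene. Bhmt2 and Dmgdh meet at their starts, and Bhmt lies apart with log2 fold changes of -1.19 in KO and -1.42 in WT.

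Cbs encodes cystathionine beta-synthase, the enzyme that commits homocysteine to transsulfuration. The KO L-AC livers had 298.4, 258.0, 286.0, 349.3 and 369.6 CPM, against 497.3, 501.3, 449.6, 532.1 and 446.9 CPM in KO saline. The WT L-AC livers ran from 261.9 to 385.1 CPM with a median of 330.0, against 423.4 to 561.3 with a median of 461.4 CPM in WT saline. All L-AC libraries were below all saline libraries in both genotypes. Cbs was 1.55-fold lower in KO (log2 fold change -0.64, SE 0.108, edgeR adjusted p = 4.74e-05) and 1.47-fold lower in WT (-0.55, SE 0.0955, edgeR adjusted p = 4.81e-05).

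Cth encodes cystathionine gamma-lyase, which releases cysteine from cystathionine, and it had the largest fitted fold change of the 9 genes in both genotypes. Its levels were 90.80, 76.69, 107.5, 89.73 and 256.2 CPM in KO L-AC livers, against 334.8, 459.2, 283.0, 311.1 and 327.7 CPM in KO saline livers. In WT they ran from 79.55 to 112.1 with a median of 93.56 CPM under L-AC, and from 196.0 to 448.3 with a median of 304.4 CPM under saline. The groups did not overlap in either genotype, and KO L-AC replicate 5 stood apart from the other 4 livers of its group. Cth was 2.76-fold lower in KO (log2 fold change -1.47, SE 0.263, edgeR adjusted p = 8.61e-05) and 3.4-fold lower in WT (-1.77, SE 0.236, edgeR adjusted p = 2.06e-06). Without KO L-AC replicate 5 the log2 fold change in KO was -1.91.

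Non-overlap gives a view of the same data without a model. The libraries of L-AC and saline did not overlap for 4 of the 9 genes in KO (Mat1a, Cbs, Cth and Pemt) and for 5 in WT (Gnmt, Cbs, Cth, Pemt and Dmgdh). Over all genes tested the share without overlap was 32.6% in KO and 24.1% in WT. Cbs, Cth and Pemt were the genes without overlap in both genotypes.

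**Figure D3:**
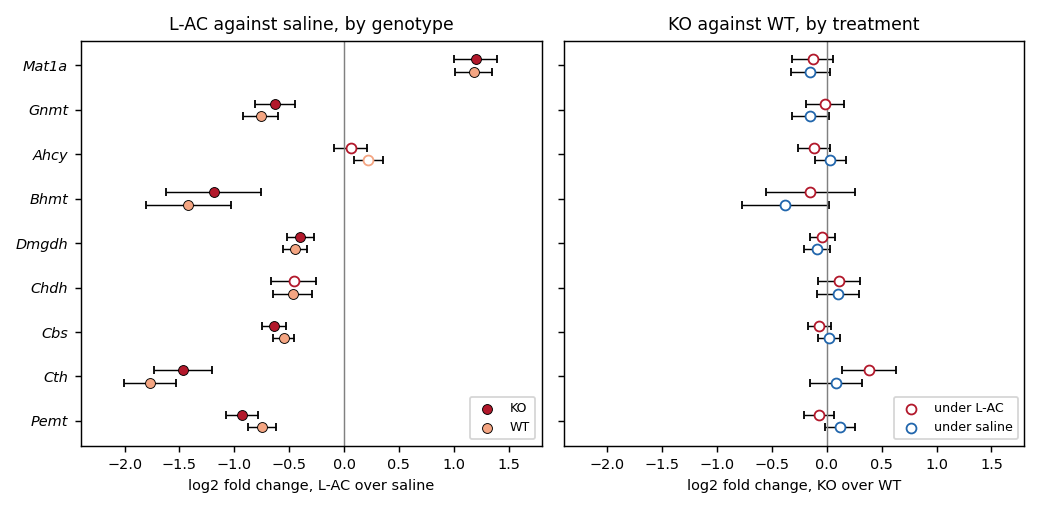
Log2 fold change of each of the 9 genes with its standard error, for L-AC over saline (left panel, KO above WT) and for KO over WT (right panel, under L-AC above under saline); filled points are called by edgeR and open points are not. On the left all genes but Ahcy and Chdh are called in both genotypes, and on the right no point is filled.

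The genes were also compared by level. On the scale of CPM per kilobase of exon, which allows genes to be compared, Mat1a stood at 3174 ± 545.3 in KO L-AC and 3476 ± 726.7 in WT L-AC livers, with SD over 5 and 6 livers. Next came Ahcy, at 807.6 ± 169.2 in KO L-AC and 879.4 ± 144.8 in WT L-AC, Gnmt, at 772 ± 198.6 in KO L-AC and 780.1 ± 144.8 in WT L-AC, and Bhmt, at 588.2 ± 306.6 in KO L-AC and 653.8 ± 219.8 in WT L-AC, 3 genes that did not separate beyond their spread. Under saline Mat1a, Bhmt and Gnmt lay close together, at 1384 ± 199.3, 1344 ± 827.3 and 1196 ± 293.6 CPM per kilobase in KO and at 1532 ± 452.2, 1755 ± 829.6 and 1325 ± 190.3 in WT (SD, n = 5 and 7), which does not separate them beyond their spread. Ahcy followed at 772.4 ± 131.4 in KO saline and 756.7 ± 97.94 in WT saline. Dmgdh, Cbs, Pemt and Cth formed a lower tier, from 184 to 193.9 CPM per kilobase in KO saline and from 175.9 to 195.7 in WT saline, again within their spread. Under L-AC that tier opened, with Dmgdh at 139.8 ± 18.82 in KO and 143.2 ± 10.69 in WT and Cth at 68.95 ± 41.42 in KO and 52.91 ± 8.137 in WT. Chdh was last in every group, between 27.88 and 41.26 CPM per kilobase.

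The sum of all 9 genes was 16285 ± 2146 CPM in KO L-AC, 17656 ± 2596 in WT L-AC, 12659 ± 3084 in KO saline and 14096 ± 3377 in WT saline livers (SD, n = 5, 6, 5 and 7). Mat1a alone made the sum higher under L-AC. Without it the sum of the other 8 genes was 5220 ± 993.5 CPM in KO L-AC, 5537 ± 610.2 in WT L-AC, 7836 ± 2418 in KO saline and 8756 ± 1973 in WT saline livers.

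The loss of Ehhadh was compared at each treatment. Under L-AC none of the 9 genes was called between KO and WT by edgeR, where 0.0141% of all genes, 2 in number, were called, and the log2 fold changes of KO over WT ran from -0.15 for Bhmt (SE 0.408) to 0.38 for Cth (SE 0.246), with a median of -0.07. The value of Cth turned to -0.06 without KO L-AC replicate 5. None of the 9 was under an unadjusted edgeR p of 0.05 (4.53% of all genes were), and none was called by DESeq2 (0.106%) or limma-voom (0.0141%). Under saline again none was called by edgeR (0.0141% of all genes), none was under the unadjusted p (1.86%), and none was called by DESeq2 (0.0493%) or limma-voom (0.0141%). The log2 fold changes of KO over WT under saline ran from -0.38 for Bhmt (SE 0.398) to 0.12 for Pemt (SE 0.133), with a median of 0.02. The standard errors were smallest for Cbs, 0.103 under L-AC and 0.0996 under saline, and largest for Bhmt. They are not the size of difference that could pass unseen, which is larger. With 0.0141% of all genes called, a call after adjustment needed a difference of several standard errors. The absence of calls thus leaves room for differences of that size, most of all for Bhmt.

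Whether L-AC acted differently in KO and in WT was tested as an interaction. No gene at all was called by edgeR (0%), DESeq2 (0%) or limma-voom (0%), and none of the 9 was under an unadjusted edgeR p of 0.05, where 2.25% of all genes were. The log2 difference of the L-AC effect, KO minus WT, ran from -0.19 for Pemt (SE 0.191) to 0.30 for Cth (SE 0.343), which turned to -0.15 without KO L-AC replicate 5. Chdh was called in WT and not in KO, and its interaction was 0.01 (SE 0.272), so that a difference between the genotypes was not shown.

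Some of these genes have a partner that does the same job by another route, and 5 within-library ratios were compared over 4 contrasts each, 20 exact permutation tests in all (two-sided, adjusted by Benjamini-Hochberg over the 20). Pemt against Pcyt1a, the rate-setting enzyme of the choline route to phosphatidylcholine, was 1 of 2 ratios called. The log2 ratio of counts per kilobase averaged 2.71 ± 0.09 in WT L-AC and 3.45 ± 0.17 in WT saline livers (SD, n = 6 and 7), with no overlap, and the exact permutation p of 0.000583 was the smallest the 1716 splits allow (adjusted p = 0.0117). Taken as a difference of medians it was -0.72 and not called (exact permutation, adjusted p = 0.117). The median test is coarse, because splits that swap only outer libraries leave both medians unchanged. It cannot reach the smallest p even without overlap. In KO it averaged 2.59 ± 0.53 under L-AC and 3.52 ± 0.19 under saline (SD, n = 5 each), with overlap (exact permutation p = 0.0159, adjusted p = 0.0794). With 252 splits in KO against 1716 in WT, the smallest p within reach is larger in KO. A ratio called in WT only thus does not show a difference between the genotypes. Pcyt1a itself did not pass the test, with a log2 fold change of -0.04 in KO (SE 0.0959, edgeR adjusted p = 0.744) and -0.01 in WT (SE 0.0843, edgeR adjusted p = 0.908).

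Bhmt against Mtr, the folate-dependent methionine synthase, compares both routes of homocysteine remethylation. The log2 ratio averaged 8.75 ± 0.76 in KO L-AC and 10.09 ± 0.99 in KO saline (SD, n = 5 each; exact permutation p = 0.0476, adjusted p = 0.159). In WT it averaged 8.85 ± 0.77 under L-AC and 10.74 ± 0.83 under saline (SD, n = 6 and 7; exact permutation p = 0.00291, adjusted p = 0.0291). The change passed the adjusted threshold in WT, with contact between the groups at 9.71, and it did not without WT L-AC replicate 5, the lowest library, where the difference was -1.60 (exact permutation, adjusted p = 0.0505), nor as a difference of medians of -2.03 (exact permutation, adjusted p = 0.117). The median test is coarse here too.

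Mat1a against Mat2a, the form of methionine adenosyltransferase used outside the liver and in growing hepatocytes, is a ratio of genes that both rose under L-AC. Mat2a rose 1.69-fold in KO (log2 fold change 0.76, SE 0.202, edgeR adjusted p = 0.00366) and 1.47-fold in WT (0.55, SE 0.177, edgeR adjusted p = 0.0115). The log2 ratio Mat1a/Mat2a averaged 5.28 ± 0.49 in KO L-AC and 4.78 ± 0.16 in KO saline (SD, n = 5 each; exact permutation p = 0.0635, adjusted p = 0.181). In WT it averaged 5.74 ± 0.27 under L-AC and 5.05 ± 0.41 under saline (SD, n = 6 and 7; exact permutation p = 0.00816, adjusted p = 0.0544). Neither passed the adjusted threshold with all libraries. Without WT saline replicate 1 the difference in WT was 0.81 (exact permutation, adjusted p = 0.0216), and without KO L-AC replicate 5, whose Mat2a of 403.8 CPM was the highest of all libraries, that in KO was 0.65 (exact permutation, adjusted p = 0.0408).

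The other ratios set members against each other. Cbs/Bhmt, transsulfuration against remethylation, averaged -2.09 ± 0.74 on the log2 scale in KO L-AC and -2.55 ± 1.03 in KO saline, and -2.24 ± 0.51 in WT L-AC and -3.07 ± 0.69 in WT saline (SD, n = 5, 5, 6 and 7), and the larger of these differences had an adjusted p of 0.142 (exact permutation p = 0.0355). Gnmt/Pemt, both users of S-adenosylmethionine, averaged 2.96 ± 0.25 in KO L-AC and 2.62 ± 0.43 in KO saline (SD, n = 5 each), and 2.88 ± 0.35 in WT L-AC and 2.91 ± 0.24 in WT saline (SD, n = 6 and 7). Its difference in WT was -0.02 (exact permutation p = 0.896). Of the 10 ratios compared between KO and WT none passed the adjusted threshold, and the smallest exact permutation p was 0.0779, for Mat1a/Mat2a under L-AC.

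**Figure D4:**
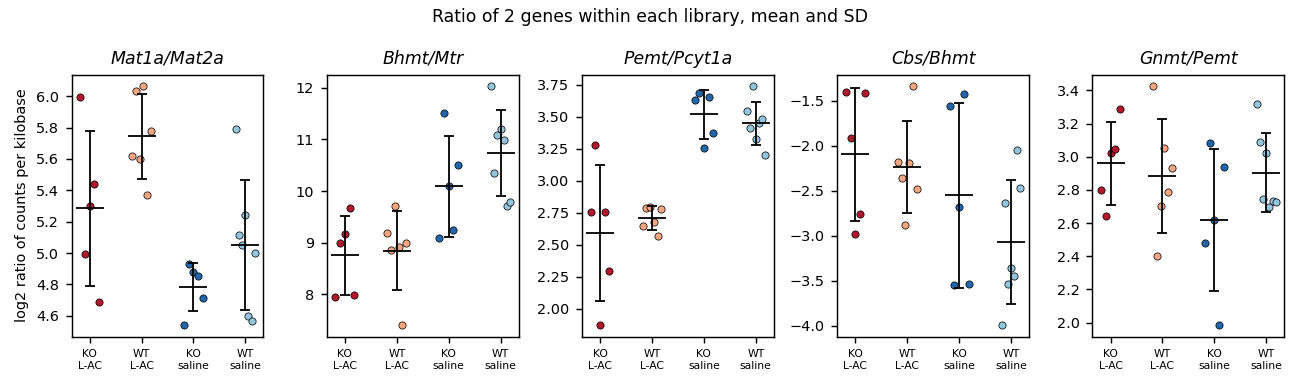
Log2 ratio of counts per kilobase of 5 gene pairs in every library (points), with the mean and SD of each group (bars); KO L-AC, WT L-AC, KO saline and WT saline run from left to right. For Pemt/Pcyt1a the WT L-AC libraries (2.57 to 2.80) lie below all WT saline libraries (3.20 to 3.74), and for Gnmt/Pemt the groups overlap.

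The pathway around the 9 genes was read from 5 companion lists of 57 genes, 56 of them tested. Under L-AC 15 were called higher and 24 lower in KO, and 15 higher and 25 lower in WT, where 25.2% and 23.6% of all genes in KO and 26.6% and 26.7% in WT were called higher and lower. None was called between KO and WT under L-AC, under saline or in the interaction by edgeR, with 4, 0 and 2 genes under an unadjusted p of 0.05, where 4.53%, 1.86% and 2.25% of all genes were.

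Of 7 genes of remethylation and adenosylmethionine turnover, 3 rose and none fell in KO, and 4 rose and 1 fell, Bhmt2, in WT. Of all genes 25.2% were called higher and 23.6% lower in KO, and 26.6% higher and 26.7% lower in WT. Mtr rose by 0.50 on the log2 scale in WT (SE 0.15, edgeR adjusted p = 0.00777) and had a log2 fold change of 0.25 in KO (SE 0.172, edgeR adjusted p = 0.232), at levels of 3.438 to 7.043 CPM over all libraries. Mtrr, the reductase that keeps methionine synthase active, rose in KO (log2 fold change 0.50, SE 0.174, edgeR adjusted p = 0.0205) and in WT (0.41, edgeR adjusted p = 0.0276). Mat2b, the regulatory subunit that pairs with the product of Mat2a, rose by 0.38 in KO and 0.28 in WT on the log2 scale.

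Most genes of cysteine and sulfur disposal, downstream of Cth, fell. Of 12 genes 9 fell in KO and 8 in WT, and 1 rose in each. Of all genes 25.2% were called higher and 23.6% lower in KO, and 26.6% higher and 26.7% lower in WT. Gclc, the catalytic subunit of the first step of glutathione synthesis, averaged 139.1 ± 35.91 CPM in KO L-AC and 466.4 ± 92.18 in KO saline, and 140.6 ± 54.44 CPM in WT L-AC and 413.1 ± 133.9 in WT saline livers (SD, n = 5, 5, 6 and 7). It was 3.35-fold lower in KO (edgeR adjusted p = 6.02e-05) and 2.94-fold lower in WT (edgeR adjusted p = 4.73e-05). In WT saline replicate 1 Gclc stood at 135.8 CPM, within the WT L-AC range of 70.66 to 209.5 CPM. The other WT saline livers had 373.8 to 550.3 CPM. Sqrdl (Sqor, sulfide quinone oxidoreductase) was 2.72-fold lower in KO and 2.77-fold lower in WT, and Ethe1 (persulfide dioxygenase) 2.6-fold in KO and 2.0-fold in WT. Mpst (mercaptopyruvate sulfurtransferase) was 1.48-fold lower in KO and 1.56-fold in WT, and Cdo1 (cysteine dioxygenase, the entry to taurine synthesis) 1.83-fold in KO and 1.43-fold in WT, all of them called. The gene that rose was Got1, the cytosolic aspartate aminotransferase, named here after its value was seen, by 1.97 in KO (SE 0.533, edgeR adjusted p = 0.0041) and 1.11 in WT (SE 0.453, edgeR adjusted p = 0.0438) on the log2 scale. Its groups overlapped. They ran from 223.8 to 1034 CPM in KO L-AC against 78.3 to 233.2 in KO saline. In WT they ran from 219.7 to 622.3 CPM under L-AC against 66.4 to 639.8 under saline. The WT medians were 500.7 CPM under L-AC and 124 CPM under saline.

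More choline and betaine genes fell than rose. Of 17 tested 2 rose and 8 fell in KO, and 2 rose and 7 fell in WT. Of all genes 25.2% were called higher and 23.6% lower in KO, and 26.6% higher and 26.7% lower in WT. Chkb, a choline kinase, averaged 256.6 ± 13.1 CPM in KO L-AC and 116.5 ± 13.14 in KO saline, and 253.7 ± 26.84 CPM in WT L-AC and 115.4 ± 13.39 in WT saline livers (SD, n = 5, 5, 6 and 7), a 2.2-fold rise in each genotype (edgeR adjusted p = 8.96e-09 in KO and 7.43e-10 in WT). Sardh, sarcosine dehydrogenase, the next step after Dmgdh, was 2.2-fold lower in each genotype (log2 fold change -1.14, SE 0.176, in KO and -1.13, SE 0.156, in WT). Pipox, which also oxidizes sarcosine, was 3.2-fold lower in KO and 2.58-fold lower in WT, and Aldh7a1, which makes betaine from betaine aldehyde, was 1.7-fold lower in KO and 1.78-fold lower in WT, all called.

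Other users and recyclers of S-adenosylmethionine went both ways. Of 10 other methyltransferases 4 rose and 4 fell in KO, and 3 rose and 5 fell in WT, beside 48.8% of all genes called in either direction in KO and 53.3% in WT. Hnmt (histamine methyltransferase) fell 3.72-fold in KO and 2.89-fold in WT, Inmt (indolethylamine methyltransferase) 3.52-fold in KO and 2.37-fold in WT, and Gamt (the last step of creatine synthesis) 2.51-fold in KO and 2.28-fold in WT. Coq3, a methyltransferase of ubiquinone synthesis, rose 1.57-fold in KO and 1.41-fold in WT, and 2410127L17Rik (Carnmt1, carnosine methyltransferase) rose 1.31-fold in KO and 1.29-fold in WT. Of 10 genes of methionine salvage and polyamine synthesis 5 rose and 3 fell in KO, and 5 rose and 4 fell in WT, against the same shares of all genes. Odc1 (ornithine decarboxylase) averaged 111.2 ± 6.914 CPM in KO L-AC and 51.49 ± 7.937 in KO saline, and 113.8 ± 19.77 CPM in WT L-AC and 56.14 ± 16.34 in WT saline livers (SD, n = 5, 5, 6 and 7), a 2.16-fold rise in KO and a 2.03-fold rise in WT. Srm (spermidine synthase) rose 1.85-fold in KO and 1.6-fold in WT. Of the salvage pathway, Mri1 rose 1.54-fold in KO and 1.48-fold in WT, and Adi1 was 1.98-fold lower in KO and 1.84-fold lower in WT.

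**Figure D5:**
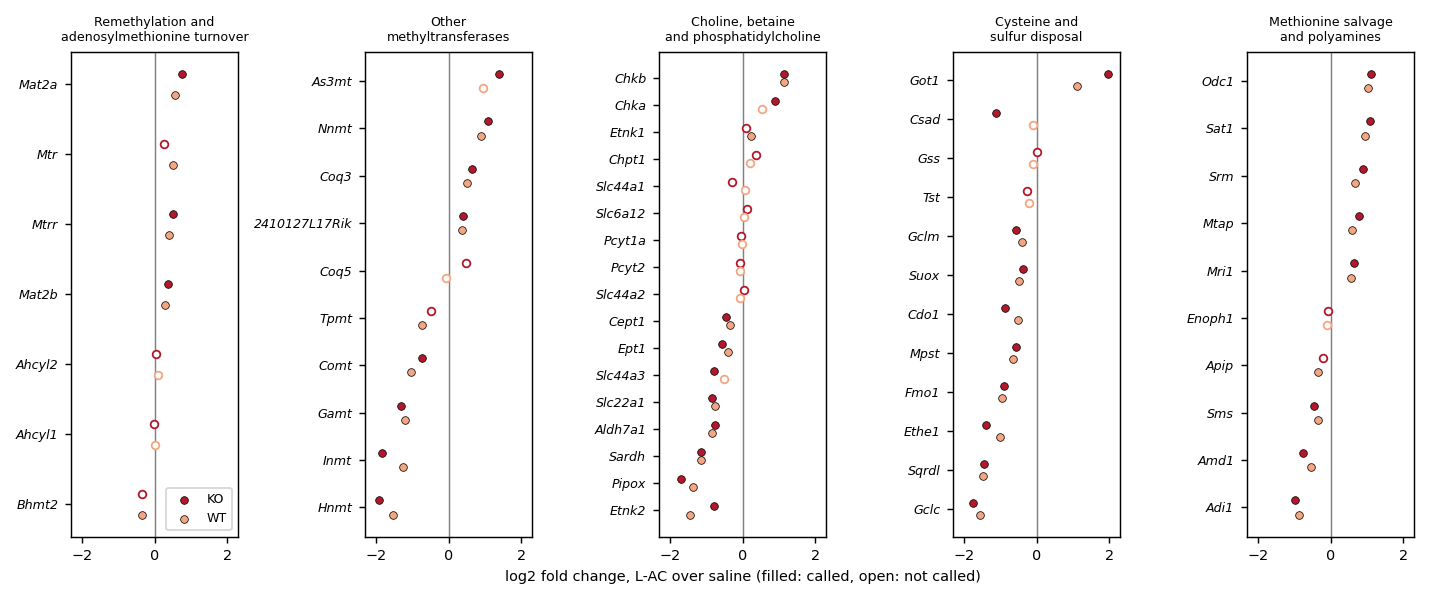
Log2 fold change of L-AC over saline for the 56 tested genes of the 5 companion lists, KO above WT for each gene; filled points are called by edgeR and open points are not. Chkb stands at 1.14 in both genotypes, and Gclc at the bottom of the cysteine list at -1.75 in KO and -1.55 in WT.

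Genes with the most similar pattern over the 23 libraries were taken by the root mean square difference of centred log2 CPM among 11396 genes. For Mat1a these were Slc25a12, the mitochondrial aspartate-glutamate carrier (0.162), and Arg1, the arginase of the urea cycle (0.166), beside a median of 0.703 between Mat1a and all genes. F11, coagulation factor XI (0.384), was close to Cth. Rbp4 (0.13) and Adh5 (0.149) were nearest to Cbs, and Tmem50a (0.136) and Ndufv3 (0.145) to Pemt. Bhmt, for which the median over all genes was 0.99, had Odf3b (0.481) and Slc17a4 (0.51) nearest. Nearest to Gnmt were Tmem86b (0.186) and Ebp (0.192), to Ahcy Foxred1 (0.158) and Ctnnd1 (0.164), to Chdh Tmem260 (0.142) and Gtf2i (0.155), and to Dmgdh its antisense gene AW495222 (0.0487), with which it shares reads, and Cyp2j6 (0.135). These likenesses are descriptions, and treatment is shared by all of them.

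Some markers of liver zones and cell types were called under L-AC as well. Of all genes 25.2% were called higher and 23.6% lower in KO, and 26.6% higher and 26.7% lower in WT. The counts below are to be read against these shares, and 1 call in a list of 4 or 5 genes is near them. Periportal hepatocyte markers (Sds, Hal, Cyp2f2, Aldh1b1 and Ctsc) summed to 455 to 751 CPM in KO L-AC, 424 to 690 in WT L-AC, 1452 to 2152 in KO saline and 1323 to 1870 in WT saline livers, with 4 of 5 called lower in KO and 5 of 5 in WT. Pericentral markers (Glul, Cyp2e1, Oat, Cyp1a2, Slc1a2 and Rhbg) summed to 3637 to 8620 CPM in KO L-AC, 6765 to 8595 in WT L-AC, 10423 to 13410 in KO saline and 10716 to 13884 in WT saline, with 3 of 6 called lower in KO and 5 of 6 in WT. Hepatocyte markers summed to 27524 to 49797 CPM in KO L-AC, 39029 to 48446 in WT L-AC, 56761 to 66679 in KO saline and 53334 to 64528 in WT saline, with 3 of 5 lower in each genotype. Kupffer cell markers (Clec4f, Vsig4, Cd5l, Emr1 and Marco) summed to 29.5 to 73.4 CPM in KO L-AC, 30.8 to 72.2 in WT L-AC, 66.2 to 153 in KO saline and 52.1 to 184 in WT saline, with 3 of 5 lower in KO and 4 of 5 in WT. Stellate cell markers (Lrat, Reln, Des, Dcn and Col1a1) had overlapping sums, of 143 to 188 CPM in KO L-AC, 164 to 210 in WT L-AC, 75.9 to 188 in KO saline and 98.3 to 169 in WT saline, with 1 of 5 called higher in KO and 3 of 5 in WT and none called lower. Of 4 lymphocyte markers tested, 1 was called higher and 1 lower in KO, and 1 higher and 3 lower in WT. Of 5 endothelial markers, 2 were called lower in KO and 1 in WT, and of 5 cholangiocyte markers 1 was called lower in each genotype. No marker of these lists was at 0 in all libraries. Their part in the changes of the 9 genes was not tested, and in whole liver fewer cells of a kind cannot be told apart from less RNA per cell.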

How the data were processed

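Liver polyA RNA was sequenced as 100-nucleotide single-end reads, per the labels' protocols. The authors' deposited files hold raw counts of reads per gene, made with featureCounts 1.4.4 (per the file headers) without strand and with a read counted for every gene it overlapped, after alignment to mm10 with STAR 2.4.0 (per the submitters' processing notes). Genes were kept by filterByExpr (minimum count 10, minimum total 15) and fitted with TMM scaling and 1 mean per group over all 23 libraries by edgeR 4.0.16 in R 4.3.3. SE is the log2 fold change divided by the root of its F statistic. CPM use TMM-scaled library sizes, and length is that of the files. DESeq2 1.42.0 and limma-voom (limma 3.58.1) were alternatives. The fits were tested on simulated data in which far fewer genes changed than were called under L-AC here, so a change that broad was not simulated. Figures and tables used Python 3.11.15. Replicates are numbered in accession order and do not pair animals.

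Named genes are the 9, Ehhadh, the ratio partners, up to 4 called genes with the smallest p per companion list and genotype, and the 2 genes of the most similar pattern (mean of at least 1 CPM, prior count 2). Bhmt2, AW495222, Cacna1d and Got1 are named beside these. The 9 genes, the lists and the tests were chosen with earlier results of these data known. Of 57 companion genes 54 matched by their own name and 3 by a synonym. Some genes that the naming rule or the lists take are not reported here. Promoter sequences are from RefSeq on GRCm38.p6, the build of mm10.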

Additional observations from a re-analysis of the deposited data

Results flagged for a closer look

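Over 56 groups of values of the 9 genes and 5 ratios, 2 single libraries stood farther from their group than Dixon's 95% limit, where chance gives about 1 in 20 groups. Cth in KO L-AC replicate 5 was 256.2 CPM, against 76.69 to 107.5 CPM in the other 4 libraries of that group, a gap of 0.829 of the range where the limit is 0.71. The same library had the highest Mat2a of all libraries, at 403.8 CPM, and the lowest Chdh, at 88.96 CPM. The log2 ratio Bhmt/Mtr in WT L-AC replicate 5 was 7.41, against 8.87 to 9.71 in the other 5, a gap of 0.632 of the range where the limit is 0.625.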

How the results depend on the processing

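The number of the 9 genes called stayed within 1.5 times its value under every alternative run, in all 5 contrasts except that the interaction cannot be had from 2 groups: DESeq2, limma-voom, size factors of DESeq2 in edgeR, no filter, a filter of 1 CPM in 5 libraries, an adjusted p under 0.01, age added to the model, the 2 compared groups fitted alone, and each library left out, where it was 6 to 8 in KO and 7 to 8 in WT. No called fold change or ratio changed sign, while 20 of the 65 tested values, none of them called, did in at least 1 alternative. With a library left out, log2 fold changes of KO over WT under L-AC ran from -0.06 to 0.52 for Cth, -0.11 to 0.10 for Gnmt, -0.39 to 0.01 for Bhmt, -0.24 to 0.05 for Pemt and -0.08 to 0.04 for Dmgdh. Under saline they ran from -0.23 to 0.01 for Mat1a, -0.06 to 0.11 for Ahcy, -0.02 to 0.06 for Cbs and -0.04 to 0.18 for Cth. The interaction ran from -0.14 to 0.10 for Mat1a, -0.00 to 0.53 for Bhmt, -0.15 to 0.43 for Cth, -0.10 to 0.18 for Chdh and -0.02 to 0.13 for Dmgdh, and the effect of L-AC in KO from -0.02 to 0.15 for Ahcy. The interaction of Mat1a was -0.01 by limma-voom and -0.02 with age in the model, that of Dmgdh -0.01 with age in the model, and that of Chdh -0.00 by limma-voom and with no filter. Ratios of KO over WT under L-AC ran from -0.38 to 0.11 for Bhmt/Mtr (0.04 as medians), -0.29 to 0.06 for Pemt/Pcyt1a (0.03), -0.02 to 0.18 for Gnmt/Pemt and -0.03 to 0.36 for Cbs/Bhmt, and Gnmt/Pemt between L-AC and saline in WT from -0.13 to 0.08 (0.11 as medians). At an adjusted p under 0.01 the calls of Bhmt and Dmgdh in KO and of Chdh in WT were lost. All genes called between KO and WT under L-AC were 2 by edgeR, 15 by DESeq2, 5 with those groups fitted alone and 2 to 6 with a library left out; under saline they were 2 by edgeR, 7 by DESeq2 and 2 to 5 with a library left out. As a difference of medians, Bhmt/Mtr in WT was -2.03 and Pemt/Pcyt1a in WT -0.72 on the log2 scale (adjusted exact permutation p = 0.117 for each). At these group sizes the median test is coarse and cannot reach the smallest p. With a library left out, the difference ran from -2.06 to -1.60 for Bhmt/Mtr in WT, from 0.61 to 0.81 for Mat1a/Mat2a in WT, from 0.32 to 0.65 for Mat1a/Mat2a in KO and from -1.10 to -0.75 for Pemt/Pcyt1a in KO, whose adjusted exact permutation p was 0.0408 without KO L-AC replicate 2. The cause of these changes was not tested. Taking the counts of AW495222 from Dmgdh, chosen after seeing the data, left its log2 ratio of means at -0.40 in KO and -0.45 in WT. Because those counts were a nearly constant 11.3% to 13% of Dmgdh counts, the ratio could hardly change, and the part of shared reads was not tested. No paired analysis was possible because replicate numbers only follow accession order. Depth was not limiting for the 9 genes, whose lowest count in a library was 2030, and group sizes of 5 to 7 limit small differences between genotypes.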

Other observations

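Among the kinases that open phosphatidylcholine and phosphatidylethanolamine synthesis, Chkb rose and Etnk2 fell under L-AC. Chkb was higher in every L-AC library than in any saline library, from 237.0 to 269.5 CPM in KO L-AC and 219.4 to 284.1 in WT L-AC, against 95.30 to 125.7 in KO saline and 92.88 to 127.4 in WT saline. Chka had a log2 fold change of 0.89 in KO (SE 0.354, edgeR adjusted p = 0.0421) and 0.54 in WT (SE 0.308, edgeR adjusted p = 0.143). Etnk1, an ethanolamine kinase, had a log2 fold change of 0.10 in KO (SE 0.112, edgeR adjusted p = 0.5) and 0.24 in WT (SE 0.0983, edgeR adjusted p = 0.0454). Etnk2, an ethanolamine kinase of liver, was 1.71-fold lower in KO (edgeR adjusted p = 0.0455) and 2.71-fold lower in WT (edgeR adjusted p = 0.000216), and its interaction was 0.66 on the log2 scale (SE 0.419, edgeR adjusted p = 1). Csad, which decarboxylates cysteine sulfinate on the way to taurine, had a log2 fold change of -1.11 in KO (SE 0.37, edgeR adjusted p = 0.0164) and -0.09 in WT (SE 0.322, edgeR adjusted p = 0.836), with an interaction of -1.02 (SE 0.487, edgeR adjusted p = 1). Chka, Etnk1, Etnk2 and Csad were picked for mention after their values were seen.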
